A study of Mus musculus with 8 samples.

Results

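The Ikaros family of zinc finger transcription factor genes was examined in stem cell-like cells of the mouse fetal liver. Its 5 genes, Ikzf1 to Ikzf5, were chosen by name, and 4 of them matched a row by symbol among the 14268 rows (14033 symbols) of the authors' comparison. No row matched Ikzf3 by symbol or older name, so that gene was not analysed here. Both groups came from E14.5 embryos of Flt3-Cre mice crossed to the mTmG reporter strain and were sorted for the same surface profile, lineage marker-negative, cKit+, Sca1+ and CD150+. The GFP+ fraction (4 libraries) had undergone Cre recombination, and the Tomato+ fraction (4 libraries) had not. GFP therefore records past as well as present activity of the Cre, and both fractions carry the Cre and the reporter. The labels do not say whether libraries came from separate embryos or litters, so p-values may measure technical spread. All values are the authors' means of normalized counts over a fraction, with no value per library. No SD, standard error or overlap of the groups can be given, and the depth of each library is unknown.

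Ikaros proteins bind DNA through zinc fingers near the amino terminus and pair with each other through zinc fingers near the carboxyl terminus, so members expressed in the same cell can form mixed dimers. They recruit chromatin complexes, above all the nucleosome remodelling and deacetylase complex NuRD, and both activate and repress genes. In the mouse, Ikaros (Ikzf1) is needed for normal lymphoid development and acts already in multipotent progenitors. Helios (Ikzf2) is expressed in hematopoietic stem cells and regulatory T cells, and Aiolos (Ikzf3) in lymphoid cells. Eos (Ikzf4) is a partner of Foxp3 in regulatory T cells, and Pegasus (Ikzf5) is a more distant and widely expressed member.

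The measured members moved in opposite directions. Ikzf1 rose and Ikzf2 fell in GFP+ cells, while Ikzf4 and Ikzf5 did not pass the authors' adjusted p of 0.05. Of the 4 measured members 2 were called, a count too small to set against the 7.49% of all rows called in either direction. The family was also chosen with earlier results of these data known. By direction, 4.86% of all rows were called higher and 2.64% lower in GFP+.

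For Ikzf1 the normalized count averaged 3791 in GFP+ cells and 2646 in Tomato+ cells. The ratio was 1.43-fold, a log2 value of 0.52, with an adjusted p = 0.00156 in the authors' deposited table. The overall mean of Ikzf1, 3218 normalized counts, was higher than that of 97.9% of rows. The rise was a modest one among called genes: 67.8% of the rows called higher in GFP+ had a larger log2 ratio, and their median was 0.79. Rows with high means lean towards GFP+. At an overall mean of 5000 or more, above that of Ikzf1, 113 of 163 rows were called higher and 0 lower. The median log2 ratio of those rows was 0.38. Among 3731 rows with an overall mean from 500 to 5000, the range that holds Ikzf1, 212 were called higher and 69 lower. The median log2 ratio in this range was 0.08, against 0.01 over all rows. The authors' p-values do not follow the ratio alone, since rows of that range of means were called at log2 ratios as small as 0.024 in size.

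For Ikzf2 the average was 633 normalized counts in GFP+ cells and 1214 in Tomato+ cells. It was 1.92-fold lower in GFP+, a log2 value of -0.94, with an adjusted p = 4.78e-09 in the authors' deposited table. By p-value it ranked 104 of all rows, while Ikzf1 ranked 452. The change was close in size to those of other called falls, whose median log2 ratio was -1.11, and 60.6% of them were larger.

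Ikzf5 had 394 normalized counts in GFP+ cells and 359 in Tomato+ cells. Its log2 ratio of 0.13 had an adjusted p = 0.917 in the authors' deposited table, and it turned to -0.02 when both fractions were scaled to the same total. Ikzf4 was barely detected, at 2.05 normalized counts in GFP+ and 8.56 in Tomato+. Its log2 ratio of -2.06 was the largest of the family in size, but the authors' deposited table gives it an adjusted p = 0.837. At such low means few rows could be called: of 1082 rows with an overall mean under 10, 3 passed, and the smallest called change among them was 1.94 on the log2 scale.

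**Figure D1:**
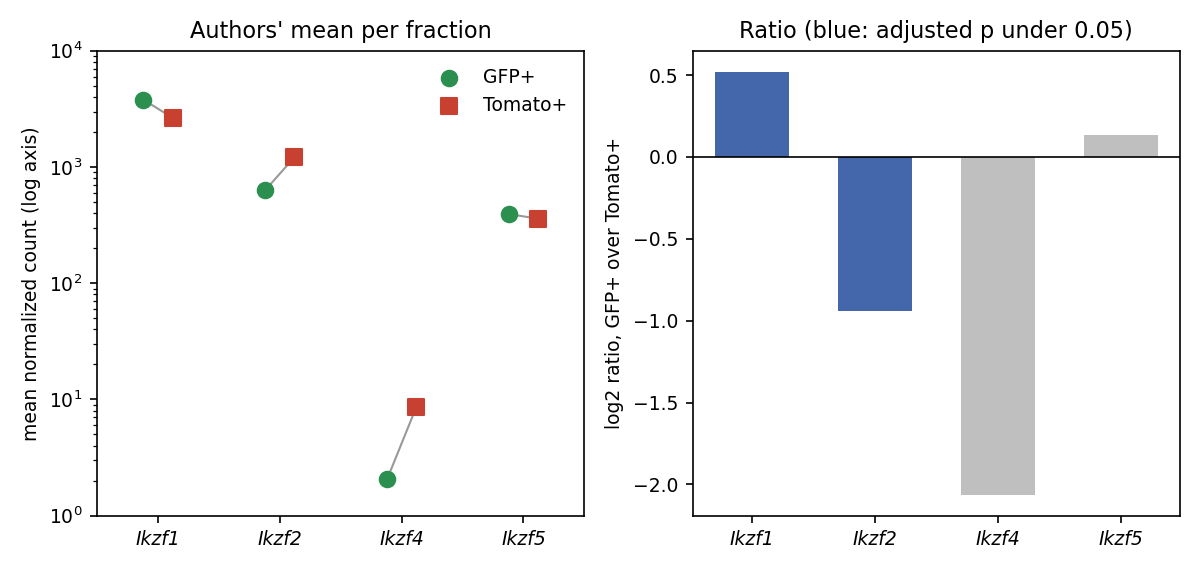
Left, the authors' mean normalized count (log axis) of the 4 measured family members in GFP+ (green circles) and Tomato+ (red squares). Right, the log2 ratio of GFP+ over Tomato+, in blue where the authors' adjusted p was under 0.05 (Ikzf1 at 0.52 and Ikzf2 at -0.94) and in grey otherwise; no error bars can be drawn from group means.

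**Figure D2:**
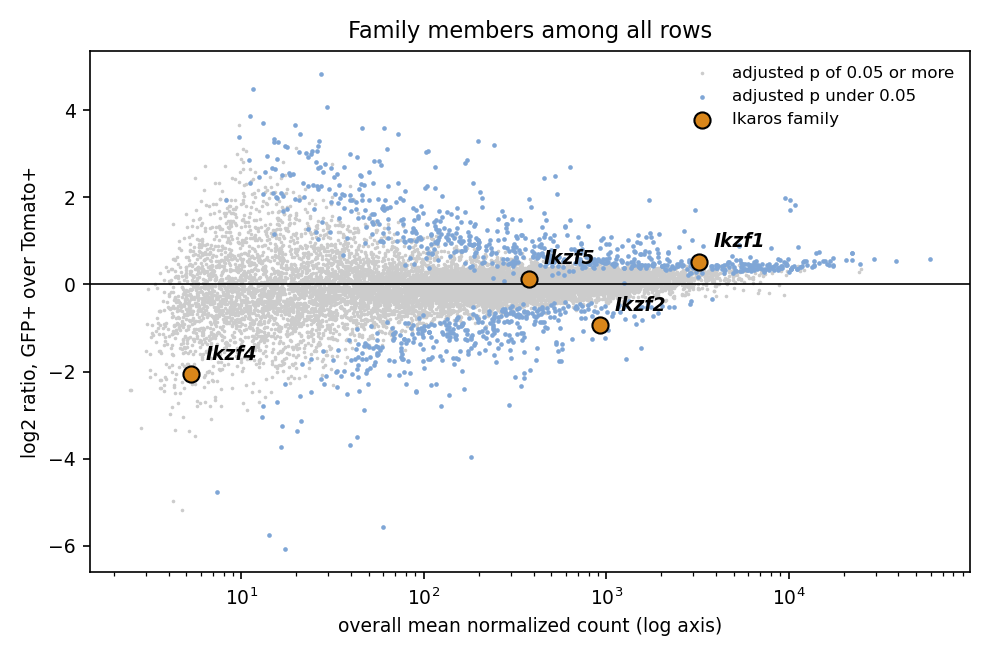
Log2 ratio of GFP+ over Tomato+ against overall mean normalized count (log axis) for all 14268 rows, with rows at an adjusted p under 0.05 in blue and the 4 family members in orange. Ikzf1 and Ikzf2 lie among the called rows on opposite sides of 0, and Ikzf4, with an overall mean of 5.30, lies among the scattered rows of low mean.

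The balance between Ikzf1 and Ikzf2 follows from their opposite changes. The ratio of Ikzf1 to Ikzf2 normalized counts was 5.99 in GFP+ cells and 2.18 in Tomato+ cells, and so 2.75 times as high in GFP+. This comparison of ratios depends on neither the scaling of the fractions nor the length of the genes. Against Ikzf5, the ratio of Ikzf1 was 1.31 times as high in GFP+. The ratio of Ikzf2 to Ikzf5 was 1.61 in GFP+ and 3.38 in Tomato+, a 2.10-fold lower value in GFP+. None of these ratios has a test, since that needs values per library.

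Levels of different members can be compared only per length of transcript. Divided by the merged exon length of GENCODE M21 (5582 bases for Ikzf1, 9548 for Ikzf2, 4669 for Ikzf5 and 5830 for Ikzf4), Ikzf1 was the highest member in both fractions, at 679 normalized counts per kb in GFP+ and 474 in Tomato+. In GFP+ cells Ikzf5 came next at 84.3 per kb, followed by Ikzf2 at 66.3. In Tomato+ cells Ikzf2 came next at 127 per kb, followed by Ikzf5 at 76.9. The order of Ikzf2 and Ikzf5 thus differed between the fractions, and it did so too with the length of the longest coding transcript, at 68.2 for Ikzf2 and 88.9 for Ikzf5 in GFP+ and, for the same genes, 131 and 81.0 per kb in Tomato+. Ikzf4 was lowest, at 0.352 per kb in GFP+ and 1.47 in Tomato+. The sources used here do not state which exons the authors counted, and whether Ikzf2 and Ikzf5 differ beyond their spread was not tested. Each gene has 1 row, so isoforms of Ikzf1, some of which lack DNA-binding fingers, cannot be told apart.

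Likeness of pattern can be measured here only over the 2 group means. By distance on the log2 scale, the rows nearest to Ikzf1 were Pgam1, a glycolytic enzyme, at 3930.4 normalized counts in GFP+ and 2749 in Tomato+, and Phgdh, of serine synthesis, at 3591 in GFP+ and 2667 in Tomato+. The authors' deposited table gives them an adjusted p = 0.0394 and an adjusted p = 0.0204, both larger than that of Ikzf1. Nearest to Ikzf2 were Gata2, a transcription factor of stem cells, with 665 in GFP+ and 1371 in Tomato+, and Pear1, a platelet receptor, with 701 in GFP+ and 1089.6 in Tomato+. Ikzf5 was nearest to Sqle and Btbd3, and Ikzf4 to Pcdh12 and Dlg5, and none of these 4 rows was called.

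The promoters of Ikzf1 are shown because it is the member that rose. The Rag1 promoter is that of a called gene regulated by Ikaros, and it holds the longer form of the binding motif described below. The sequences are RefSeq's, from build GRCm38.p6, and give the 250 bases before a transcription start, 5′ to 3′ on the strand of the gene. Capitals mark GGGAA, the core of the Ikaros binding motif, or its reverse complement TTCCC, and in Rag1 the longer form TGGGAA. The windows are chr11:11685675-11685924 and chr11:11689927-11690176 on the plus strand for Ikzf1, and chr2:101649533-101649782 on the minus strand for Rag1.
Ikzf1, upstream start: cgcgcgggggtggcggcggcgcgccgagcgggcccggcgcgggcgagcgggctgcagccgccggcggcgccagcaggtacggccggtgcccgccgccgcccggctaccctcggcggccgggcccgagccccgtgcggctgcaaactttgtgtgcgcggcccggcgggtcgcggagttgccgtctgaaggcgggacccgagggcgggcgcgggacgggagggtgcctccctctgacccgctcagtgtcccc
Ikzf1, downstream start: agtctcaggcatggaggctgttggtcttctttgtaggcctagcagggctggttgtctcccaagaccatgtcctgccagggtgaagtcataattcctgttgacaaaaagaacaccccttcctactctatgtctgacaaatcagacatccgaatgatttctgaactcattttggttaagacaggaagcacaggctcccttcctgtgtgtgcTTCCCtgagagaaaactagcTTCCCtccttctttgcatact
Rag1: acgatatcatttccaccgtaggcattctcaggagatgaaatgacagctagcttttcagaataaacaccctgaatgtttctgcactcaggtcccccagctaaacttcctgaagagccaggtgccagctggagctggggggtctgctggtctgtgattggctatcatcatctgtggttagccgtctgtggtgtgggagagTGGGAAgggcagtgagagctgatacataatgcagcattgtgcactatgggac

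The GC-rich window of the upstream Ikzf1 start held no GGGAA on either strand, and that of the downstream start held 2. Of all 32851 mouse promoter windows of this length, 56.2% held GGGAA on either strand and 21.6% held TGGGAA, of which GGGAA is a part. Among 23 windows of 18 genes regulated by Ikaros, 60.9% held GGGAA and 17.4% TGGGAA. Among the called genes of that list, TGGGAA was in the window of Rag1 and in 1 of the 5 windows of Satb1. Rag1 was the only one of the 8 called genes with 1 window to hold TGGGAA, so it is not typical of them. The windows of Ccr9, Igll1 and Notch1 held no GGGAA. A match describes these letters in this window and says nothing of binding in these cells.

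All 13 listed genes of NuRD, the chromatin complex that works with Ikaros, were measured, and 1 fell and 0 rose, with a median log2 ratio of 0.11. Such a count is near the 7.49% of all rows called. The gene that fell was Chd3, one of the chromatin remodelling ATPases of NuRD, at 938 normalized counts in GFP+ and 1449.6 in Tomato+. Its log2 ratio of -0.63 had an adjusted p = 0.000363 in the authors' deposited table. Chd4, the other main ATPase of the complex, had 6609 in GFP+ and 6107 in Tomato+ and an adjusted p = 0.954 in the authors' deposited table. The log2 ratio of Chd4, 0.11, turned to -0.04 with both fractions scaled to the same total. Rbbp4, a histone-binding subunit, had a log2 ratio of 0.34, for which the authors' deposited table gives an adjusted p = 0.202.

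Of 9 other partners (Sin3, CtBP and SWI/SNF subunits and Runx1), 0 passed the authors' DESeq comparison and 0 had an unadjusted p under 0.05, a count too small to set against the 7.49% of all rows. Their log2 ratios ran from -0.12 to 0.21. Of 12 genes listed for the stability or phosphorylation of Ikaros proteins, 0 passed, also too small a count to set against the 7.49%. Whether the 12 act on Ikaros proteins in these cells was not tested. An unadjusted p under 0.05 was found for 3 of the 12, a cutoff for which no share of all rows is given here. Crbn, which in human cells with thalidomide analogues marks Ikaros for degradation, had 523 normalized counts in GFP+ and 513 in Tomato+. The smallest p among them was that of Ppp1ca, a catalytic subunit of the phosphatase PP1 that acts on Ikaros, with 3891 in GFP+ and 2974 in Tomato+. Its adjusted p was 0.0533 in the authors' deposited table, just outside the threshold; it was named after its values were seen. With p-values adjusted only over rows with an overall mean of at least 10 or at least 50, 1 gene of this list was called higher. Scaling both fractions to the same total turned the medians of the NuRD, partner and turnover lists to -0.05, -0.10 and -0.03, while the median of all rows moved to -0.15.

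Genes known to be regulated by Ikaros in mouse lymphoid precursors were higher in GFP+. Of 18 measured of 22 listed, 10 rose and 0 fell, while 4.86% of all rows were called higher and 2.64% lower. The median log2 ratio of the list was 1.00, against 0.01 over all rows. The list holds genes that Ikaros activates as well as genes that it represses, and it was written with earlier results known. Flt3 is both on this list and the gene of the Cre driver that defines the fractions. With Flt3, the genes that rose were Rag1, Rag2, Il7r, Ccr9, Notch1, Satb1, Myc, Igll1 and Vpreb1.

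Satb1, a chromatin organiser of lymphoid progenitors, rose 2.03-fold, with 1773 normalized counts in GFP+ and 872 in Tomato+ and an adjusted p = 1.24e-10 in the authors' deposited table. Rag2, which acts with Rag1 in antigen receptor gene recombination, had 172 in GFP+ and 36.2 in Tomato+. Igll1, a surrogate light chain gene of B cell precursors, had 53.0 in GFP+ and 1.88 in Tomato+. Its partner Vpreb1, which may share reads with the near-identical Vpreb2, had 48.5 in GFP+ and 4.96 in Tomato+. Igll1 and Myc are known to be repressed by Ikaros in mouse B cell precursors, and both rose here. Myc, a growth regulator, had 2594 normalized counts in GFP+ and 1726 in Tomato+, with an adjusted p = 0.00103 in the authors' deposited table.

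Among listed genes that did not pass, Hes1, a Notch target, had the smallest p, with 32.8 in GFP+ and 17.5 in Tomato+ and an adjusted p = 0.216 in the authors' deposited table. Notch3, with 73.0 in GFP+ and 80.2 in Tomato+, and the cell cycle inhibitor gene Cdkn1b, with 257 in GFP+ and 312 in Tomato+, were the members with a log2 ratio below 0. The list shares 4 measured genes with the B lymphoid markers, 22.2% of its own and 36.4% of theirs. Without those 4, 8 of 14 rose and 0 fell, against 4.86% and 2.64% of all rows. Of the 4 left out, Blnk and Cd79b had not been called. Lymphoid genes such as Rag1, Rag2 and Satb1 stay among the 8, so this count does not set the list apart from lymphoid genes. Flt3, the gene of the Cre driver, is still among those 8.

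**Figure D3:**
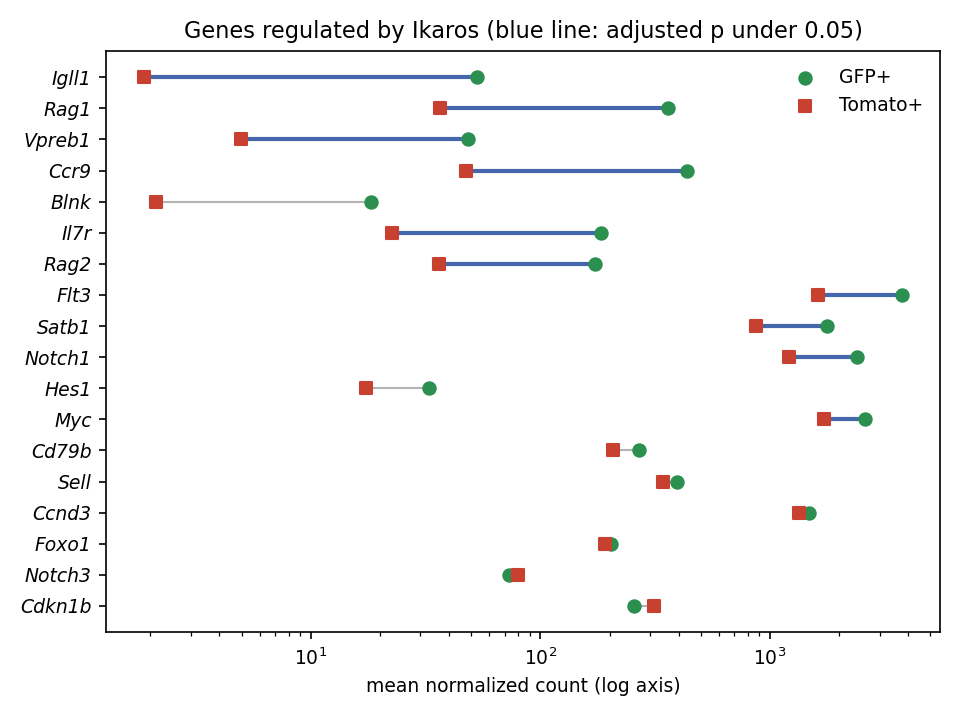
Authors' mean normalized count (log axis) in GFP+ (green circles) and Tomato+ (red squares) for the 18 measured genes regulated by Ikaros, in order of log2 ratio. Blue lines mark the 10 genes with an adjusted p under 0.05, all with the GFP+ mean above the Tomato+ mean.

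Markers of other cell types moved with the fractions. Their called counts stand against 4.86% of all rows called higher and 2.64% called lower in GFP+. In bulk libraries, fewer cells of a type and less RNA per cell cannot be told apart. Of 12 stem cell markers 8 fell in GFP+ and 0 rose. However, 1 was called higher when p-values were adjusted over rows with an overall mean of at least 10 or at least 50. Hoxa9, a transcription factor of stem and progenitor cells, had a log2 ratio of 0.38 with an adjusted p = 0.0521 in the authors' deposited table. The 12 markers' summed means were 10333 in GFP+ and 14595 in Tomato+. Esam and Mecom had the smallest p-values, with log2 ratios of -2.11 and -1.54. Slamf1, the gene of the CD150 used in the sort, had 27.9 normalized counts in GFP+ and 119 in Tomato+, while Kit and Ly6a, the genes of the other sort markers cKit and Sca1, did not pass. Kit had 4087 in GFP+ and 4949.6 in Tomato+, and Ly6a had 59.5 in GFP+ and 70.1 in Tomato+.

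Of 11 measured B lymphoid markers 5 rose and 0 fell. Pou2af1 and Ebf1 had the smallest p-values among them, with log2 ratios of 4.08 and 3.05. The log2 ratio of Igll1, 4.82, was larger than both, and that of Vpreb1 was 3.29. The 11 markers' summed means were 682 in GFP+ and 265 in Tomato+, and no row matched Ms4a1, Cd22, Blk or Vpreb2. Of 7 measured T and NK markers only Lck rose, with a log2 ratio of 1.00. That count is too small to set against the 4.86% of all rows called higher. Among the T and NK markers not called, Cd28 had 2.46, Thy1 -1.68 and Klrb1c -0.69. No row matched Cd3d, Cd3e, Cd3g or Cd8a, and the list summed to 403 in GFP+ and 282 in Tomato+.

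Of 12 macrophage markers 9 rose, against 4.86% of all rows called higher. The 12 markers' sums were 1588.5 in GFP+ and 469 in Tomato+, with log2 ratios of 2.79 for Cd5l and 3.06 for Marco. Of 15 hepatoblast markers 12 rose, with sums of 4090.2 in GFP+ and 2194 in Tomato+ and log2 ratios of 2.45 for Alb and 2.49 for Afp. Of 11 erythroid markers 8 rose, with sums of 39152 in GFP+ and 12963 in Tomato+ and log2 ratios of 1.94 for Hba-a2 and 1.71 for Hbb-b1, whose reads near-identical globin genes may share. None of these 3 lists had a member called lower, but 5 uncalled members had log2 ratios below 0. In the erythroid list these were Epor, the erythropoietin receptor gene, at -0.89, the transcription factor gene Klf1 at -0.46 and Ermap at -0.31. In the hepatoblast list they were Krt18, a keratin gene, at -0.71 with an adjusted p = 0.0562 in the authors' deposited table, and Dlk1 at -0.29. With p-values adjusted over rows with an overall mean of at least 50, 6 of 8 hepatoblast markers were called higher and 1 lower. The uncalled markers given here were named after their values were seen. The part of these cells in the Ikzf1 and Ikzf2 differences was not tested.

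**Figure D4:**
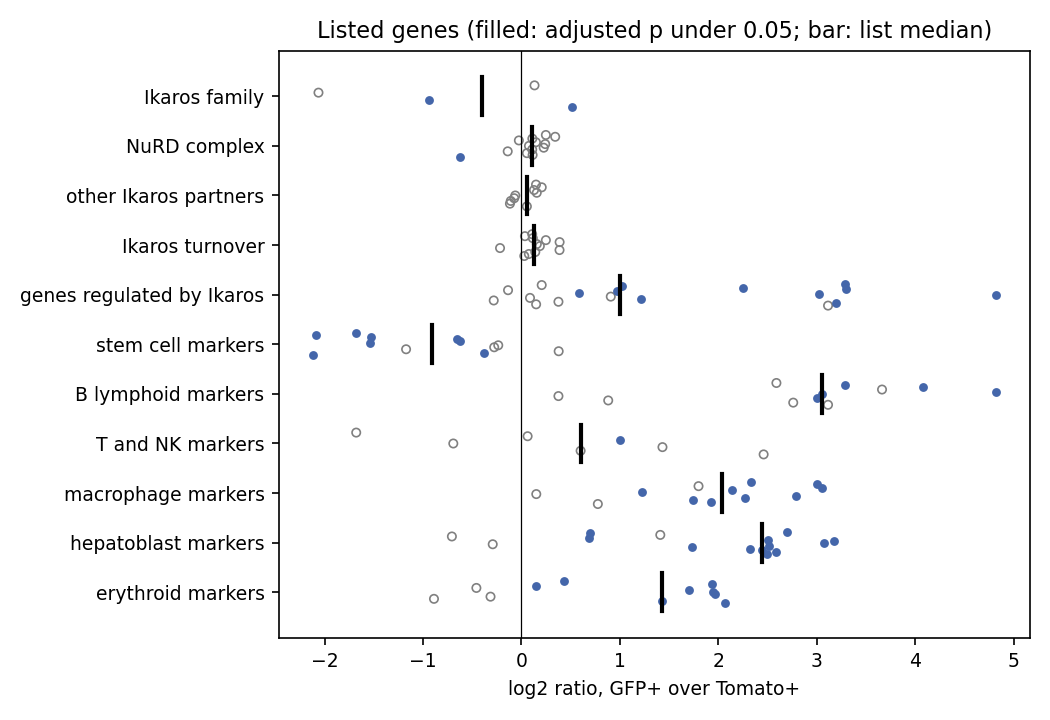
Log2 ratio of GFP+ over Tomato+ for each measured gene of the 11 lists, 1 point a gene, filled blue where the adjusted p was under 0.05, with a black bar at the list median. Partner and turnover genes lie close to 0, genes regulated by Ikaros and markers of B cells, macrophages, hepatoblasts and erythroid cells mostly to the right, and stem cell markers mostly to the left.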

How the data were processed

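RNA of 8 sorted libraries was measured, 4 GFP+ and 4 Tomato+. The submitters' processing notes name DESeq, bedtools, TopHat, TopHat2 2.0.11 and Bowtie2 2.2.1, and build mm9, without roles or settings. The authors deposited 1 table with mean normalized counts (baseMean, a signal never below 0) over all libraries and per fraction. Per the file headers it also holds a fold change, which is the ratio of Tomato+ to GFP+ means, and its log2. The authors' p-values come with adjusted values that match a Benjamini-Hochberg adjustment over all rows within 5.28e-08. A repeated header line was dropped.

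Log2 ratios were recomputed from the means as GFP+ over Tomato+ with Python 3.11.15, pandas 2.3.3 and numpy 2.4.6, with no pseudocount, since the smallest group mean was 0.255. Where a symbol had several rows, that of highest mean was used. Called means an authors' adjusted p under 0.05. The adjustment step was tested on simulated data. Levels per kb used GENCODE M21 exon lengths, of build GRCm38, a choice made after seeing the data. 1 listed gene was matched through an older symbol.

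The family and all lists were chosen with earlier results of these data known. Named were the 5 members, called partner and turnover genes, called regulated genes and the uncalled one with the smallest p, the 2 markers of smallest p and defining genes per marker list, and the 2 rows nearest to each member. The planned tests on values per library were not run, since only group means were used.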

Additional observations from a re-analysis of the deposited data

How the results depend on the processing

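Ikzf1 and Ikzf2 were both called at adjusted p thresholds of 0.1 and 0.01, with 1 row per symbol and with a minimum overall mean of 10 or 50. Requiring also a log2 ratio of at least 1 in size left 0 members called, and a Bonferroni adjustment left 1, Ikzf2; both criteria are stricter by construction. The rows called in the whole table fell to 699, 492 and 308 of 1069 at an adjusted p under 0.01, with that minimum ratio and with Bonferroni. Called counts of the 10 partner, target and marker lists were within 1.5 times for 7 to 10 lists under each alternative. At an overall mean of at least 50 only 1 of the B lymphoid markers was measured, and it was not called. Scaling both fractions to the same total lowers every log2 ratio by 0.16. It gave 0.36 for Ikzf1, -1.10 for Ikzf2 and -0.023 for Ikzf5, whose sign turned because the shift exceeds its ratio. Of 120 listed genes measured, 22 changed sign with it, of which 1, Rhag, was called. Depth per library is unknown, which limits Ikzf4. No paired analysis was possible because only group means, without single libraries, were at hand; libraries were not left out in turn for the same reason.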
